A study of Bos taurus with 6 samples.

Results

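This set holds 35 genes of glycolysis and of the response to low oxygen in bovine mammary epithelial cells with and without a disrupted KLF6 gene. The genes were taken by symbol from a fixed list, and each of the 35 symbols stood on 1 row of the deposited count table, which has 28200 rows in all. The list covers the hypoxia-inducible factors and the hydroxylases that control them, 5 hypoxia-responsive genes, the enzymes from hexokinase to lactate dehydrogenase with the PFKFB regulators, and the carriers of glucose and lactate. The cells were primary mammary epithelium of Holstein cattle, with 3 wild-type libraries and 3 libraries of cells in which KLF6, a zinc-finger transcription factor, was disrupted with CRISPR/Cas9, described as complete. No drug treatment, oxygen level or culture time is given for either group. Nothing states that libraries within a genotype stem from different cultures, animals or clones, so each p-value reflects the scatter among libraries alone, and that scatter may be technical.

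Glycolysis turns glucose into pyruvate in the cytosol, and lactate dehydrogenase can then turn pyruvate into lactate, which leaves the cell through monocarboxylate carriers. Several steps are served by isozymes coded by separate genes, whose balance differs between tissues. When oxygen is low, the alpha subunits HIF1A and EPAS1 escape hydroxylation by the EGLN enzymes, pair with ARNT and raise the transcription of many glycolytic genes. In the mammary gland glucose is also the precursor of lactose, so its uptake and use are central to milk synthesis.

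Total counts were 17512892 to 18724879 per library, and CPM below means counts per 1000000 of the TMM-scaled library. KLF6 itself read 503, 496 and 558 CPM in wild type and 224, 230.1 and 217 CPM in the knockout libraries (edgeR adjusted p = 2.25e-13), so that its RNA was lower but still present. The epithelial markers KRT8, KRT18, KRT5, EPCAM and CDH1 were read in all libraries, whereas the milk protein genes CSN2, CSN3 and LALBA were at 0. Summed over 6 luminal markers the libraries held 10867 to 12194 CPM in wild type and 3925 to 4085 CPM in knockout, and over 4 basal markers 5157 to 5243 and 2638 to 2713 CPM. Of the luminal markers 4 fell and 2 did not pass the test. Of the basal markers 3 fell and 1 rose (log2 fold change 0.76). Over all genes tested, 37.1% rose and 37.6% fell. The 8 fibroblast markers summed to 1054 to 1249.9 CPM in wild type and 245 to 258 CPM in knockout, mostly from DCN. Of the 6 tested, 4 fell and COL1A2 rose, from 0 to 278 counts over the 3 libraries. The 5 endothelial markers summed to 4.50 to 5.79 CPM in wild type and 30.8 to 32.6 CPM in knockout, with KDR at 0. That rise came from PECAM1 alone (7.11 ± 0.18 on the log2 scale), while VWF and TEK, the other 2 tested, fell (-3.85 ± 0.31 and -2.31 ± 0.45). Leukocyte markers stayed at 3.23 to 4.64 CPM over 5 genes, with PTPRC at 0. These sums moved with genotype, and their part in the results below was not tested. In such bulk samples fewer cells of a type and less RNA per cell cannot be told apart.

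More genes of the set fell than rose in the knockout libraries, most by less than 2-fold. Of the 35 genes, 32 had enough counts to be tested. In edgeR's quasi-likelihood test, adjusted by Benjamini and Hochberg's method over all 13390 genes tested, 7 rose and 16 fell, or 71.9% of the 32, against 74.6% of all genes tested (37.1% higher and 37.6% lower). A change of at least 2-fold was called for 4 genes (12.5%), NDRG1, LDHA, BNIP3L and PFKFB3, all lower, against 22.3% of all genes tested (10.8% higher and 11.5% lower). The libraries of the 2 genotypes did not overlap for 25 of the 32 genes (78.1%), against 76.2% of all genes tested (37.9% higher and 38.3% lower). The median log2 fold change, knockout over wild type, was -0.16 for the 32 genes and -0.01 for all genes tested, and the median size of the change regardless of sign was 0.46 and 0.50. The share of calls in both directions together was thus near the background, while the split by direction leaned towards lower. That lean was not tested, and the set is described below by its single genes.

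**Figure D1:**
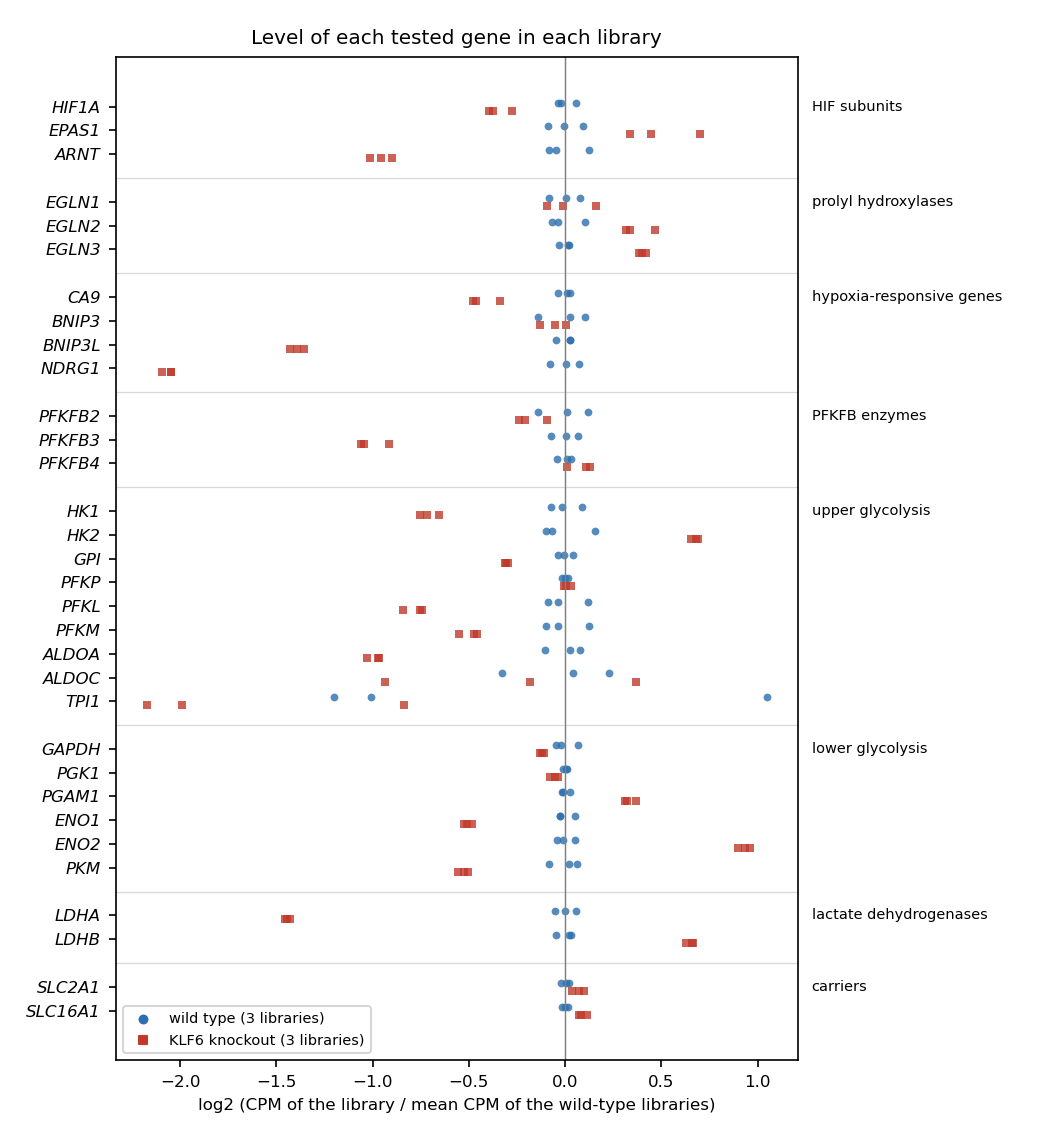
Each point is the CPM of 1 library over the mean CPM of the wild-type libraries, on a log2 axis, for the 32 tested genes in order of their role (circles, 3 wild-type libraries; squares, 3 KLF6 knockout libraries). NDRG1, LDHA and BNIP3L lie far to the left in knockout libraries, HK2, ENO2 and LDHB lie to the right, and TPI1 and ALDOC, with very few reads, scatter in both genotypes.

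**Figure D2:**
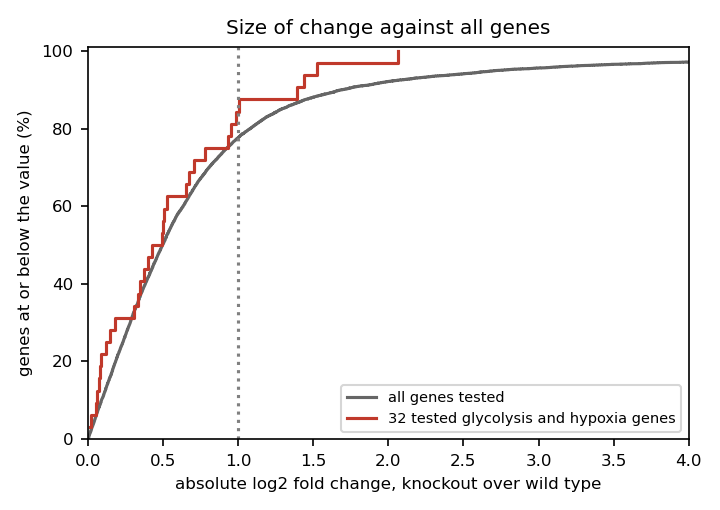
Cumulative share of genes (y axis, %) by the size of their log2 fold change regardless of sign (x axis, shown up to 4), for all 13390 genes tested and for the 32 tested genes of the set, with 2-fold marked by the dotted line. The set lies close to all genes at small changes and has fewer members past 2-fold, 12.5% called against 22.3%.

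Among the hypoxia-inducible factors, 2 subunits fell and 1 rose, where 74.6% of all genes tested were called. HIF1A, the widely expressed oxygen-regulated alpha subunit, read 344, 367 and 347 CPM in wild type and 272, 292 and 269 CPM in knockout. The genotypes did not overlap, and HIF1A fell by 0.35 ± 0.05 (SE) on the log2 scale (edgeR adjusted p = 2.48e-06). ARNT, the shared partner of both alpha subunits, read 42.7, 48.1 and 41.7 CPM in wild type and 23.7, 21.9 and 22.8 CPM in knockout, a log2 fold change of -0.95 ± 0.08 (edgeR adjusted p = 2.07e-09). EPAS1, the second alpha subunit, was rare, at 6.61 to 7.50 CPM in wild type against 8.90 to 11.4 CPM in knockout, and it rose by 0.50 ± 0.13 (edgeR adjusted p = 0.00175). Scaled for gene length as TPM (a transcript's share of the library per length, computed from the deposited counts and gene lengths and scaled to a sum of 1000000), HIF1A made up 98.6% ± 0.05 (SD, n = 3) of the alpha-subunit RNA in wild type and 97.5% ± 0.22 in knockout.

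The prolyl hydroxylases mark the alpha subunits for degradation when oxygen is present. Of the 3, 2 rose (66.7% called against 74.6% of all genes tested). EGLN2 read 104, 107 and 117 CPM in wild type and 151, 136 and 138 CPM in knockout, all knockout libraries being higher (log2 fold change 0.38 ± 0.06, edgeR adjusted p = 8.36e-06). EGLN3, itself a hypoxia-induced gene, went from 13.1 ± 0.258 to 17.3 ± 0.227 CPM (SD, n = 3; log2 fold change 0.40 ± 0.09). EGLN1, the main oxygen sensor of the family, read 51.3 to 57.2 CPM in wild type and 50.7 to 60.6 CPM in knockout, and the genotypes overlapped (0.02 ± 0.07, edgeR adjusted p = 0.789). EGLN2 was the most abundant of the 3 per length in both genotypes, with 72.6% ± 1.83 of the family's TPM in wild type and 75.6% ± 1.89 in knockout.

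Of the 5 hypoxia-responsive genes, 3 fell, BNIP3 did not pass the test and ADM was hardly read. Called were 75% of the 4 tested, against 74.6% of all genes tested. NDRG1, a stress-responsive gene linked to differentiation, read 1022, 964 and 1069 CPM in wild type and 246, 239 and 246 CPM in knockout. This was the largest change in the set, 4.18-fold lower (log2 fold change -2.06 ± 0.05, edgeR adjusted p = 5.45e-17), and 92.4% of all genes tested changed by less. BNIP3L, a receptor for the removal of mitochondria by autophagy, read 82.6, 82.5 and 78.5 CPM in wild type and 30.2, 30.9 and 31.8 CPM in knockout, 2.62-fold lower (-1.39 ± 0.06, edgeR adjusted p = 2.67e-13). Its relative BNIP3 overlapped between genotypes, at 25.2 to 29.9 CPM in wild type and 25.4 to 27.9 CPM in knockout (-0.06 ± 0.08, edgeR adjusted p = 0.522). CA9, a cell-surface carbonic anhydrase widely used as a hypoxia marker, stood at 22.2 ± 0.494 CPM in wild type and 16.5 ± 0.902 CPM in knockout (-0.42 ± 0.08, edgeR adjusted p = 0.000143). ADM, which codes for the vasodilator peptide adrenomedullin, had 8 counts over the wild-type libraries and 3 over the knockout libraries, and it was not tested (ratio 2.71, 95% counting interval 0.651 to 15.9).

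The PFKFB enzymes make and break fructose-2,6-bisphosphate, the activator of phosphofructokinase. PFKFB3, the isozyme with the highest kinase activity relative to its phosphatase activity, read 66.7, 70.1 and 73.3 CPM in wild type and 33.9, 33.6 and 37.1 CPM in knockout, 2.01-fold lower (log2 fold change -1.01 ± 0.06, edgeR adjusted p = 9.19e-11). PFKFB2 overlapped between genotypes, with 52.4 to 62.6 CPM in wild type and 48.8 to 54.0 CPM in knockout, and its call (-0.18 ± 0.07, edgeR adjusted p = 0.0247) was lost when any of 4 libraries was left out, knockout replicate 2 or 3 or wild-type replicate 2 or 3 (adjusted p = 0.0894, 0.109, 0.0535 and 0.0925), and by DESeq2 (adjusted p = 0.0607). PFKFB4 did not pass the test, at 34.2 ± 0.849 CPM in wild type and 36.2 ± 1.62 CPM in knockout (0.08 ± 0.07, edgeR adjusted p = 0.279). Per length, PFKFB3 was the most abundant of the 3 in wild type, with 38.7% ± 0.25 of their TPM, and the least abundant in knockout, with 24.7% ± 1.80.

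In the upper part of glycolysis, from glucose to triose phosphate, 5 of 9 genes fell and HK2 rose. Called were 66.7% of these genes, against 74.6% of all genes tested. HK1, the housekeeping hexokinase, read 263, 253 and 283 CPM in wild type and 169, 158 and 162 CPM in knockout (log2 fold change -0.71 ± 0.05, edgeR adjusted p = 4.21e-10). HK2, the inducible hexokinase of muscle and of proliferating cells, moved the other way, from 27.8, 27.1 and 32.4 CPM to 46.9, 46.5 and 45.8 CPM (0.67 ± 0.07, edgeR adjusted p = 1.79e-07). GPI, which converts glucose-6-phosphate into fructose-6-phosphate, stood at 576 ± 15.5 CPM in wild type and 466 ± 2.90 CPM in knockout (-0.31 ± 0.04).

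Phosphofructokinase commits sugar to glycolysis, and its 3 genes did not move alike. PFKL, the liver type, read 320.4, 310.0 and 357 CPM in wild type and 195, 183 and 197 CPM in knockout (log2 fold change -0.78 ± 0.05, edgeR adjusted p = 2.76e-10). PFKM, the muscle type, fell from 46.1 ± 3.78 to 32.7 ± 1.12 CPM (-0.49 ± 0.07). PFKP, the platelet type, overlapped between genotypes, with 254 to 259 CPM in wild type and 256 to 262 CPM in knockout (0.01 ± 0.04, edgeR adjusted p = 0.828). The PITRM1 gene overlaps PFKP on the other strand and was higher in knockout (0.84 ± 0.06). Because the sources used here do not state whether counting used strand, reads of the pair cannot be told apart with certainty.

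ALDOA, the aldolase of muscle and most other tissues, read 1464, 1412 and 1291 CPM in wild type and 681, 710.2 and 709 CPM in knockout, 1.98-fold lower (log2 fold change -0.99 ± 0.05, edgeR adjusted p = 1.91e-12). ALDOC, the brain type, had 15 to 39 counts in a library and did not pass the test (-0.15 ± 0.31, edgeR adjusted p = 0.676). TPI1, which codes for the enzyme that interconverts the triose phosphates, had only 10, 12 and 49 counts in the wild-type libraries and 5, 6 and 13 in the knockout libraries. This is 1.39 TPM in wild type, against 1294 TPM for ALDOA at the preceding step and 4120.2 TPM for GAPDH at the following step. The count table holds no other row under the symbol TPI1, and SPSB2 overlaps the locus on the other strand, with 10.3 CPM in wild type and 4.28 CPM in knockout. The TPI1 difference did not pass the test (-1.52 ± 0.69, edgeR adjusted p = 0.0720) and rested on wild-type replicate 3, since its log2 fold change was -0.43 without that library (edgeR adjusted p = 0.460) and between -2.05 and -1.30 without any 1 of the others. It passed in 5 of 12 alternative analyses, among them DESeq2 (adjusted p = 0.0219) and the edgeR fits without wild-type replicate 1 or 2. The level of this gene in the table is therefore uncertain.

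In the lower part, from triose phosphate to pyruvate, 3 of 6 genes fell and 2 rose (83.3% called against 74.6% of all genes tested). ENO1, the common enolase, read 2957, 2961 and 3127 CPM in wild type and 2155, 2098 and 2120.5 CPM in knockout (log2 fold change -0.50 ± 0.04, edgeR adjusted p = 1.73e-09). PKM, the pyruvate kinase of most tissues outside liver and red cells, read 7456, 7252 and 6745 CPM in wild type and 4971, 4864 and 5042 CPM in knockout (-0.53 ± 0.04, edgeR adjusted p = 1.97e-09). Counts per gene do not separate its splice forms PKM1 and PKM2. ENO2, the enolase known from neurons, rose from 48.0, 45.0 and 46.1 CPM to 90.1, 86.5 and 88.7 CPM, 1.91-fold (0.93 ± 0.05, edgeR adjusted p = 2.79e-11). It was the largest rise in the set. PGAM1, a phosphoglycerate mutase, also rose, from 828 ± 12.2 to 1043 ± 21.8 CPM (0.33 ± 0.04, edgeR adjusted p = 5.73e-07).

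GAPDH and PGK1, the 2 enzymes in the middle of the pathway, stayed close to their wild-type levels. GAPDH, often taken as a reference gene, read 4309.6, 4063 and 3988 CPM in wild type and 3824, 3795 and 3768 CPM in knockout, a log2 fold change of -0.12 ± 0.04 (edgeR adjusted p = 0.0121). Its call was lost without knockout replicate 2 or 3 or wild-type replicate 1 (adjusted p = 0.0565, 0.0673 and 0.0725). PGK1, on the X chromosome, read 782 to 793 CPM in wild type and 746 to 769 CPM in knockout. It did not pass the test (-0.06 ± 0.04, edgeR adjusted p = 0.205) although its groups did not overlap, and it passed when libraries were scaled by their totals alone (-0.11, edgeR adjusted p = 0.0202). Abundant glycolytic genes such as GAPDH have near-identical copies in mammalian genomes, and reads shared with such copies make their values less certain.

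The 2 lactate dehydrogenase genes moved in opposite directions. LDHA, whose enzyme form favours the reduction of pyruvate to lactate, read 2622, 2529.5 and 2728 CPM in wild type and 967, 959.7 and 976 CPM in knockout, 2.72-fold lower (log2 fold change -1.44 ± 0.04, edgeR adjusted p = 1.33e-15). LDHB, the heart form, read 371, 373 and 354 CPM in wild type and 564, 581 and 578 CPM in knockout, 1.57-fold higher (0.65 ± 0.04, edgeR adjusted p = 1.38e-10). No library of one genotype reached the range of the other for either gene. LDHB made up 12.4% ± 0.71 of the pair's TPM in wild type and 37.6% ± 0.42 in knockout, while the sum of the pair went from 2974 ± 97.1 to 1477 ± 15.3 TPM.

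Of the 4 carriers, 2 could be tested, and neither passed the test. SLC2A1, the glucose carrier GLUT1, read 722, 714 and 703 CPM in wild type and 732, 750.2 and 763 CPM in knockout. The groups did not overlap, but the difference did not pass the test (log2 fold change 0.07 ± 0.04, edgeR adjusted p = 0.125). SLC16A1, the monocarboxylate carrier MCT1, stood at 273 ± 3.08 CPM in wild type and 290.0 ± 3.98 CPM in knockout (0.09 ± 0.04, edgeR adjusted p = 0.0606). It passed by DESeq2 (0.10, adjusted p = 0.0435), with DESeq2 size factors (adjusted p = 0.0341) and without wild-type replicate 3 (adjusted p = 0.0297), and it is listed in the authors' deposited table with a log2 fold change of 0.10. SLC16A3, the hypoxia-induced carrier MCT4, had 8 to 17 counts in a wild-type library and 2 to 5 in a knockout library, too few to be tested. SLC2A3, the glucose carrier GLUT3, had 0 of 108501400 counts in the 6 libraries, which allows up to 0.0276 CPM of unscaled counts, for counting error only.

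Along the pathway, length-scaled levels differed by orders of magnitude between steps, and the order of the abundant enzymes changed with genotype. In wild type PKM and GAPDH led and overlapped, at 4362 ± 189 and 4120.2 ± 121 TPM, followed by ENO1 (2870.1 ± 114), LDHA (2605 ± 106) and ALDOA (1294 ± 72.2). In knockout GAPDH led at 3647 ± 16.2 TPM, above PKM (2907 ± 54.0) and ENO1 (1942 ± 21.3), and PGAM1 (1027 ± 18.2) stood above LDHA (922 ± 8.73) and ALDOA (627 ± 16.5). Neighbours in this knockout order did not overlap between libraries. The hexokinases together stood at 98.8 ± 6.78 TPM in wild type and 71.4 ± 1.70 TPM in knockout.

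Summed over the 17 enzymes from hexokinase to lactate dehydrogenase, the libraries held 18125 to 18425 TPM in wild type and 13051 to 13192 TPM in knockout, 28.1% lower on average. LDHA accounted for 32.8% of this net difference, PKM for 28.4%, ENO1 for 18.1% and ALDOA for 13.0%. Together these 4 genes equalled 92.3% of it, and GAPDH equalled 9.23%. These shares do not partition the fall, because genes that rose count as negative in the net difference. The genes that rose, LDHB, PGAM1, ENO2 and HK2, offset only small parts, with LDHB at -3.65% and PGAM1 at -3.47% of the net difference. TPM are shares of a library and carry no TMM scaling, so the sums are given as a description. TPI1 enters them at a level that is itself uncertain, and isozymes outside the set, such as ENO3 described below, are left out.

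**Figure D3:**
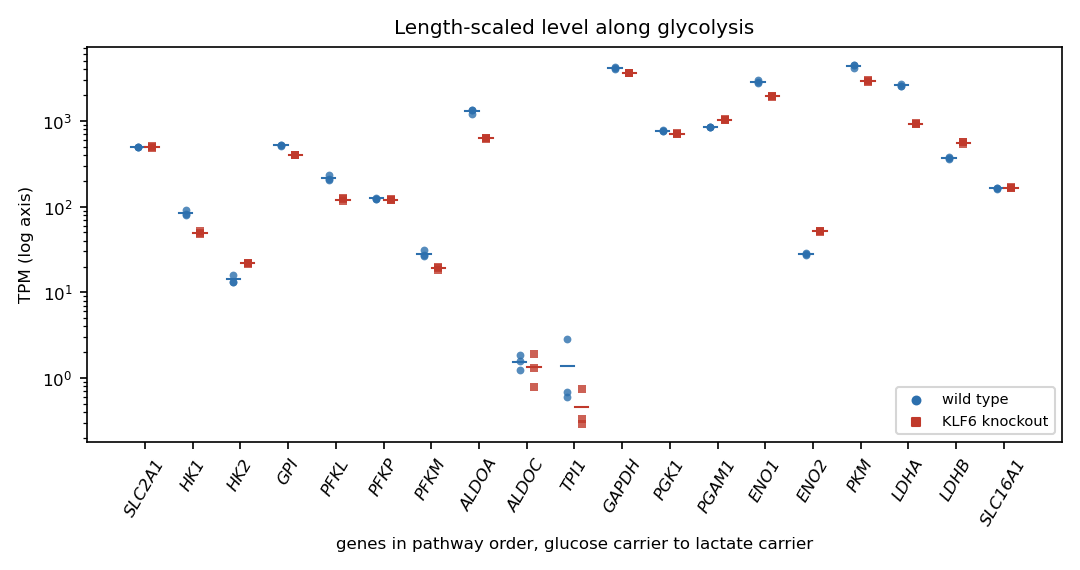
TPM of each gene (log axis) in each library, in pathway order from the glucose carrier SLC2A1 to the lactate carrier SLC16A1; circles are the 3 wild-type and squares the 3 KLF6 knockout libraries, and lines are means. The carriers and PGK1 are nearly level between genotypes, LDHA and ALDOA drop, and TPI1 and ALDOC lie at about 1 TPM.

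The balance between isozymes was compared within each library as the log2 ratio of length-scaled levels, for 11 pairs that could be computed. The groups did not overlap for 10 of the 11 pairs. Each of these had an exact two-sided permutation p = 0.1, the smallest that 3 against 3 libraries allow. After adjustment over the 11 pairs the permutation p was 0.110. Among single genes, the groups did not overlap for 76.2% of all genes tested, and the share among other pairs of genes was not computed. The largest shift was LDHB over LDHA, from 0.142 in wild type to 0.603 in knockout, a change of 2.09 on the log2 scale. ENO2 over ENO1 went from 0.00976 to 0.0264 (1.44), and HK2 over HK1 from 0.167 to 0.438 (1.39), so that HK2 made up 14.4% ± 0.52 of hexokinase TPM in wild type and 30.4% ± 0.67 in knockout.

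PFKP over PFKL went from 0.577 to 0.997 (0.79), which put both genes at about equal length-scaled levels in knockout, at 46.2% ± 0.55 and 46.4% ± 0.80 of the phosphofructokinase TPM. PFKFB4 over PFKFB3 went from 0.680 to 1.44 (1.09). BNIP3L over BNIP3 changed the other way, from 1.27 to 0.502 (-1.33), and EPAS1 over HIF1A went from 0.0142 to 0.0255 (0.84). EGLN3 over EGLN1 and PFKM over PFKL shifted by 0.38 and 0.29. The ALDOC over ALDOA ratio overlapped between genotypes (exact permutation p = 0.200). SLC16A3 over SLC16A1 changed by -1.60 but rests on 2 to 17 counts of SLC16A3 in a library.

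**Figure D4:**
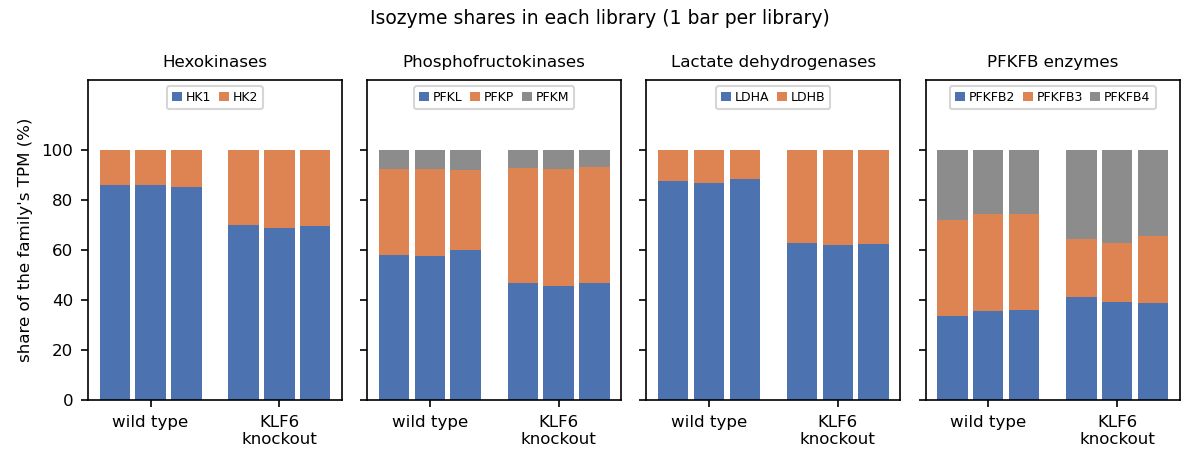
Share of each isozyme in the summed TPM of its family (y axis, %), 1 bar per library, for the hexokinases, phosphofructokinases, lactate dehydrogenases and PFKFB enzymes. In each knockout library HK2, PFKP, LDHB and PFKFB4 take a larger share than in any wild-type library, as with LDHB at 37.6% against 12.4%.

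Whole chromosomes differed in their median change between these genotypes, and several genes of the set lie on the shifted ones. NDRG1 lies on chromosome 14, whose tested genes had a median log2 fold change of -0.82, and its own change of -2.06 left -1.24 once that median was subtracted. HK1 and EGLN1 share chromosome 28, with a median of -0.57, which left -0.14 for HK1 and 0.59 for EGLN1. On chromosome 26, with a median of 0.45, PGAM1 changed sign, from 0.33 to -0.12, and BNIP3 went from -0.06 to -0.51. HIF1A and PKM on chromosome 10 (median -0.28) were left at -0.06 and -0.24, and ARNT, SLC2A1 and SLC16A1 on chromosome 3 (median -0.39) at -0.56, 0.46 and 0.48. EGLN2, on chromosome 18 (median 0.32), was left at 0.06, and GPI on the same chromosome at -0.62. LDHA (-1.18 after subtraction, chromosome 29), BNIP3L (-1.57, chromosome 8) and PFKFB3 (-1.08) kept a change of more than 2-fold, and ALDOA went from -0.99 to -1.07. These subtracted values carry no test, and the part of the chromosome in any gene's change was not tested.

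ENO2, TPI1 and GAPDH lie in this order on chromosome 5, with gaps of 32.9 and 286.4 kb in the coordinates of the count table, for which the sources used here name no genome build. ENO2 (103538156 to 103547189) rose while GAPDH (103870384 to 103874824) was called lower by a small amount. LDHB (88544523 to 88562783) and PFKM (32145678 to 32189023), on the same chromosome, moved in opposite directions as well. The chromosome's median was 0.10. LDHA lies at 26290893 to 26301350 on chromosome 29 and NDRG1 at 8073208 to 8129604 on chromosome 14.

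**Figure D5:**
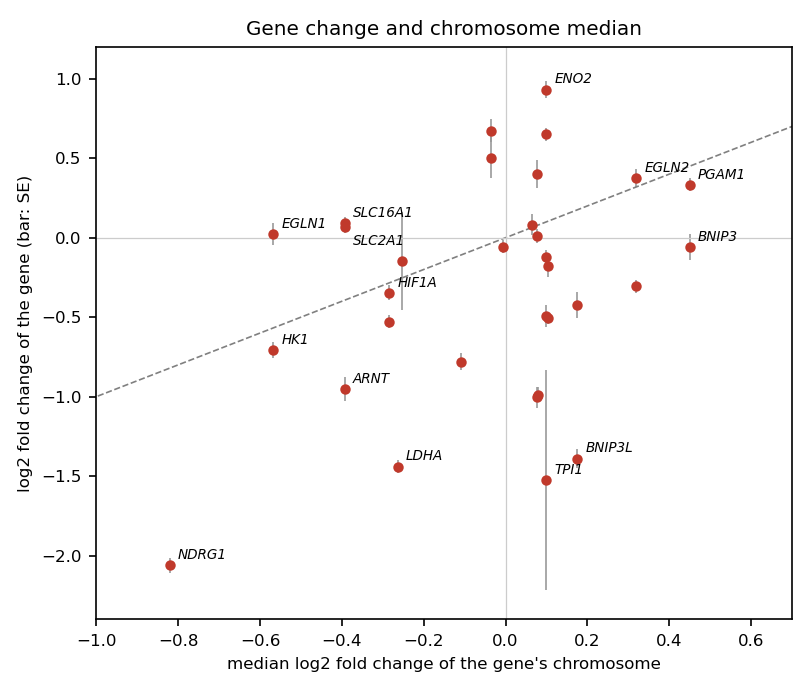
Log2 fold change of each tested gene with its SE (y axis) against the median log2 fold change of all tested genes on its chromosome (x axis); on the dashed line a gene changes as much as its chromosome's median. PGAM1, EGLN2, HIF1A and HK1 lie near the line, whereas LDHA, BNIP3L and ENO2 lie away from it.

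Other genes of sugar metabolism and of the hypoxia response, from lists drawn up with earlier results of these data known, also went both ways. Of 27 further genes of glycolysis and glucose handling, 16 were tested, of which 6 rose and 7 fell (81.2% called against 74.6% of all genes tested, median log2 fold change -0.30). At 2-fold or more, 2 rose and 5 fell, or 43.8% against 22.3%. ENO3, the muscle enolase, fell from 264 ± 6.08 to 24.2 ± 1.48 CPM (-3.44 ± 0.06, edgeR adjusted p = 5.31e-19). Per length it had stood above ENO2 in wild type, at 185 against 28.0 TPM, and stood below it in knockout, at 16.3 against 51.3 TPM. The very abundant PFN1 overlaps ENO3 on the other strand, with 1446 CPM in wild type and 1178 CPM in knockout, so the ENO3 level is less certain. SLC2A12, a glucose carrier gene, had 74 counts in wild type and 2 in knockout (ratio 37.6, 95% counting interval 10.1 to 316.6), and FBP2, the muscle fructose bisphosphatase, fell too (-2.87 ± 0.46). MINPP1, a phosphatase that also acts on 2,3-bisphosphoglycerate, rose (1.21 ± 0.06), as did the carrier gene SLC2A6 (1.05 ± 0.15) and the ADP-dependent glucokinase gene ADPGK (0.98 ± 0.07).

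Of 33 further hypoxia-related genes, 30 were tested, of which 12 rose and 16 fell (93.3% called against 74.6% of all genes tested, median -0.21). At 2-fold or more, 5 rose and 6 fell, or 36.7% against 22.3%. DDIT4, a hypoxia-induced inhibitor of mTOR signalling, read 77.9, 72.3 and 78.3 CPM in wild type and 2.47, 3.04 and 2.34 CPM in knockout (-4.86 ± 0.10). TXNIP, which restrains glucose uptake, fell from 53.8 ± 1.70 to 5.52 ± 0.231 CPM (-3.28 ± 0.08), and ANKRD37, a small hypoxia-induced gene, fell by 2.03 ± 0.37. CA12 and RORA rose from low levels (1.70 ± 0.34 and 1.59 ± 0.27). Of 15 genes of the pentose phosphate pathway and glycogen metabolism, all tested, 5 rose and 7 fell (80% called against 74.6% of all genes tested, median -0.25). At 2-fold or more 0 rose and 2 fell, or 13.3% against 22.3%. PGM1, which links glucose-1-phosphate and glucose-6-phosphate, fell (-1.08 ± 0.05), while RPIA, GBE1 and the liver-type glycogen phosphorylase gene PYGL rose (0.66 ± 0.12, 0.52 ± 0.09 and 0.36 ± 0.04). PGM1 is also counted among the further genes of glycolysis and glucose handling.

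The authors' deposited table, which lists only genes past their threshold, held 24 of the 35 genes. Its log2 fold changes had the sign found here for all 24 and differed from it by at most 0.0140.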

How the data were processed

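The authors deposited raw counts per gene for 6 libraries, and a second table holding their comparison. HISAT2 2.0.5 and featureCounts 1.5.0-p3 are named in the submitters' processing notes, without roles; the sources used here do not give build, annotation or strand setting. Per the labels' protocols, library preparation used an Ion Total RNA-Seq kit. In the authors' deposited table the sample columns are a normalized signal (counts divided by 1 factor per library), beside the authors' log2 fold changes and the deposited p-values, whose test is not stated.

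Counts were fitted with edgeR 4.0.16 (R 4.3.3): TMM scaling, filterByExpr (minimum count 10, minimum total 15), robust quasi-likelihood F test of genotype over all 6 libraries and Benjamini-Hochberg adjustment at 0.05 over 13390 genes. The fit was checked on simulated data in which few genes changed. That check does not cover data in which most genes or whole chromosomes shift. SE was taken as the absolute log2 fold change divided by the root of F. Permutation tests used scipy 1.17.1. Alternatives used DESeq2 1.42.0, limma 3.58.1 (voom), other scalings and filters, a replicate block, each library left out, and subtraction of each chromosome's median. All 35 genes are named; from each further list, the 3 largest changes per direction among the called genes, some of which are not reported here. Genes and lists were chosen with earlier results of these data known. Wild-type replicate 3 stood apart, at 9.12 to 9.14 times counting variance from its group, other pairs at 2.27 to 2.79. Promoter and protein sequences were not analysed here.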

Additional observations from a re-analysis of the deposited data

How the results depend on the processing

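Of the 32 tested genes, 27 kept their side of the threshold and their direction if called under all 13 alternatives with a test; the exceptions were PFKFB2, GAPDH, PGK1, SLC16A1 and TPI1. With each chromosome's median subtracted, PGAM1 reversed, to -0.12. The median log2 fold change of the tested genes (-0.16) was -0.24 with no filter on low counts, where more rarely read genes enter, and lay between -0.23 and -0.14 with a library left out. The count of genes called at 2-fold (4) ran from 3 to 6: PFKFB3, ALDOA and ARNT crossed 2-fold under some alternatives, and TPI1 passed the test under others. With no filter on low counts, 6 genes were called at 2-fold and 18 lower, among them a gene not tested in the main fit. The counts of genes called higher (7) and lower (16) ran from 7 to 8 and from 14 to 18. Same-numbered libraries of the 2 genotypes did not deviate together more than others (correlations -0.04, 0.07 and -0.02, against -0.10 to 0.12 for differently numbered ones). Whether libraries were cultured or prepared in pairs by number cannot be told from these values. With a replicate block, 9894 genes were called against 9991, with 7 genes of the set higher and 17 lower, 5 of them at 2-fold, a median of -0.18, and TPI1 called (-1.46, edgeR adjusted p = 0.00425). The isozyme ratios kept their direction with 0.5 counts added and with any library left out. They were not recomputed with each chromosome's median subtracted. That subtraction left EGLN3 (0.32) below EGLN1 (0.59), opposite to the shift of their ratio. It left PFKM (-0.59) close to PFKL (-0.67), while HK2 (0.71) stayed above HK1 (-0.14). Low counts limit what can be said of SLC2A3, ADM, SLC16A3, TPI1 and ALDOC, and for TPI1 the level in the count table is itself uncertain.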
